A study of Mus musculus with 4 samples.

Results

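The subject is a set of 9 genes for proteins of goblet cell mucus, Muc2, Tff3, Fcgbp, Clca1, Zg16, Agr2, Spink4, Retnlb and Muc13, in sorted crypt cells of the mouse duodenum. They were taken by symbol and make up 9 of the 31053 genes counted, and all 9 were found. Single-cell RNA libraries (10x Genomics 3' v3.1) were made from living crypt epithelial cells that carried TOM, a red fluorescent protein made once Cre recombinase has acted. There were 2 WT libraries, labelled Atoh1CreER-T2;R26RTom, and 2 APC-KO libraries, labelled Atoh1Cre;Apcfl/fl;R26RTom. Both groups therefore carried a Cre driven from Atoh1, a transcription factor gene of the secretory lineage, and the reporter, and they differed by floxed alleles of Apc, a negative regulator of Wnt signalling. The series design names the inducible Atoh1CreER-T2 for both groups, so the driver of the APC-KO mice is given differently in the sources. Both groups received 2 intraperitoneal doses of 1 mg/mL tamoxifen 24 h apart, with harvest 12 h after the second. The Cre driver and the sort set which cells could enter the libraries. Age, sex, animal and sequencing batch of a library were not given, and nothing says that the replicates were separate mice. P-values therefore measure at most the spread between these libraries, which may be technical.

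Goblet cells are secretory cells of the intestinal epithelium whose packed mucin granules form the mucus that separates the epithelium from the gut contents. MUC2 is the gel-forming mucin of that mucus; it is folded with the help of AGR2, a protein disulfide isomerase of the endoplasmic reticulum, and assembled into a net. FCGBP, the protease CLCA1, the lectin-like ZG16 and the trefoil peptide TFF3 are secreted with it, RELM beta (Retnlb) is a goblet peptide that acts on bacteria, SPINK4 is a small protein of the Kazal inhibitor family, and MUC13 is a mucin anchored in the cell membrane. Paneth cells, the other granule-bearing secretory cells of the crypt base, arise from related progenitors.

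Promoter sequences of 4 of the 9 genes were in the RefSeq table for GRCm38.p6. Those of Muc2, Fcgbp and Agr2 are shown because the first 2 genes were highest in GOBLET cells while Agr2 was highest before them. Each is the 250 bases before the RefSeq start, 5′ to 3′ on the coding strand, with capitals marking the E-box letters CANNTG, a motif that basic helix-loop-helix factors such as ATOH1 bind.
Muc2: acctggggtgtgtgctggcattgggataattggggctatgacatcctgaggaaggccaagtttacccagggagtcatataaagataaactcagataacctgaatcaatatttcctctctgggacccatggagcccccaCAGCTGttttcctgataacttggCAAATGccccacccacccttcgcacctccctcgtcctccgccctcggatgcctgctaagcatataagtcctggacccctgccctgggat
Fcgbp: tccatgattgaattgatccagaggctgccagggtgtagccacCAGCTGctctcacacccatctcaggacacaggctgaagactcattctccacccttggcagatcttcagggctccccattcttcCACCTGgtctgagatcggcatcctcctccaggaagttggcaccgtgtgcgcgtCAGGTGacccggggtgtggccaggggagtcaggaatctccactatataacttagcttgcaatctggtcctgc
Agr2: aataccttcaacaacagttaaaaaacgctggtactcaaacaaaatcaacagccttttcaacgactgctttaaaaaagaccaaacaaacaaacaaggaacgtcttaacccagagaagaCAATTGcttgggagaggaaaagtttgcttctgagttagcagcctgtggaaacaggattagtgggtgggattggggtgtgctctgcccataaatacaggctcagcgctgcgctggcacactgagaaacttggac
The Muc2 stretch lies at chr7:141690090-141690339 on the plus strand, directly before the gene at chr7:141690340-141754693. It holds 2 E-boxes, 1 of them CAGCTG, and 2 matches of TATAA. The Fcgbp stretch at chr7:28070986-28071235, also on the plus strand, holds 3 E-boxes, 1 of them CAGCTG, and 1 match of TATAA. The Agr2 stretch at chr12:35992675-35992924 on the plus strand holds 1 E-box and neither CAGCTG nor TATAA. Muc13, with 2 listed starts on chromosome 16, had 2 E-boxes before each and no CAGCTG or TATAA. Among 32851 promoters of the same length, 66.2% held CANNTG and 13.0% held CAGCTG on either strand, with CAGCTG a special case of CANNTG, and 16.0% held TATAA on the sense strand. A match is only a match of letters in this window.

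The authors' tables kept 4814 and 3821 cells in WT replicates 1 and 2, against 356 and 6243 in APC-KO replicates 1 and 2, and gave each 1 of 12 cell type names, which are used as deposited. Kept cells held 24677647, 21003179, 3009636 and 27285079 UMIs (unique molecular identifiers, counted once per captured transcript). Throughout, 4 values in a row are WT replicates 1 and 2 and then APC-KO replicates 1 and 2. APC-KO replicate 1 kept 5.15% of its UMIs in cells against 37.6% to 50.3% in the others, and held 5 SEC-PRO, 7 GP, 184 GOBLET-PRE and 28 GOBLET cells. Pairs of libraries shared 1 to 8 cell barcodes, 20 in all. Apc itself was at 87.2, 77.9, 88.1 and 88.1 UMIs per 1000000, but the tags come from the 3' end and the deleted stretch is not given, so they check nothing about the knockout. Levels below are UMIs of a gene per 1000000 UMIs (CPM) of all cells of a type in a library. A 3' library counts about 1 tag per transcript, so the values were not divided by gene length.

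The goblet marker list summed here was the 9 genes themselves, so it describes the labelled stages and gives no separate check of their names. In GOBLET cells the 9 genes together made up 41.6%, 45.3%, 38.6% and 40.4% of all UMIs, and in SEC-PRO cells 4.77%, 3.94%, 4.73% and 4.61%. The SEC-PRO sums, 39438 to 47662 CPM, were below the 54933 to 108121 CPM of PANETH-PRE cells, so the sum of the 9 did not set SEC-PRO cells apart from an early Paneth type. A list of 12 Paneth markers summed to between 2571 and 6460 CPM in GOBLET cells against 343146 to 548149 in PANETH cells. Cycling markers were at 1257 to 1866 CPM in SEC-PRO cells and at 34.0 to 146 in the 3 later stages. Enterocyte markers, a list of 9, summed to 778 to 1166 CPM in SEC-PRO, 1049 to 1270 in GP, 1392 to 1995 in GOBLET-PRE and 2391 to 3932 in GOBLET cells, and thus moved with the stages as most of the 9 genes did. Their part in the levels was not tested. Summed tuft markers stayed at or under 28.3 CPM in the 3 later stages, and summed leukocyte markers at or under 33.5 CPM in all 4.

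Over the stages SEC-PRO, GP, GOBLET-PRE and GOBLET, the genes other than Retnlb followed 3 patterns. Muc2, Tff3, Fcgbp and, less steeply, Muc13 were higher at each stage in the means, from SEC-PRO on. Clca1 and Zg16 came late, with most of their level in GOBLET cells. Agr2 and Spink4 were high from SEC-PRO on, peaked before GOBLET and were lower in GOBLET cells in every library. The authors named the types from the expression of the same cells, so differences between types are descriptions with no test, and means over SEC-PRO and GP leave out APC-KO replicate 1, which had under 10 cells of each.

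**Figure D1:**
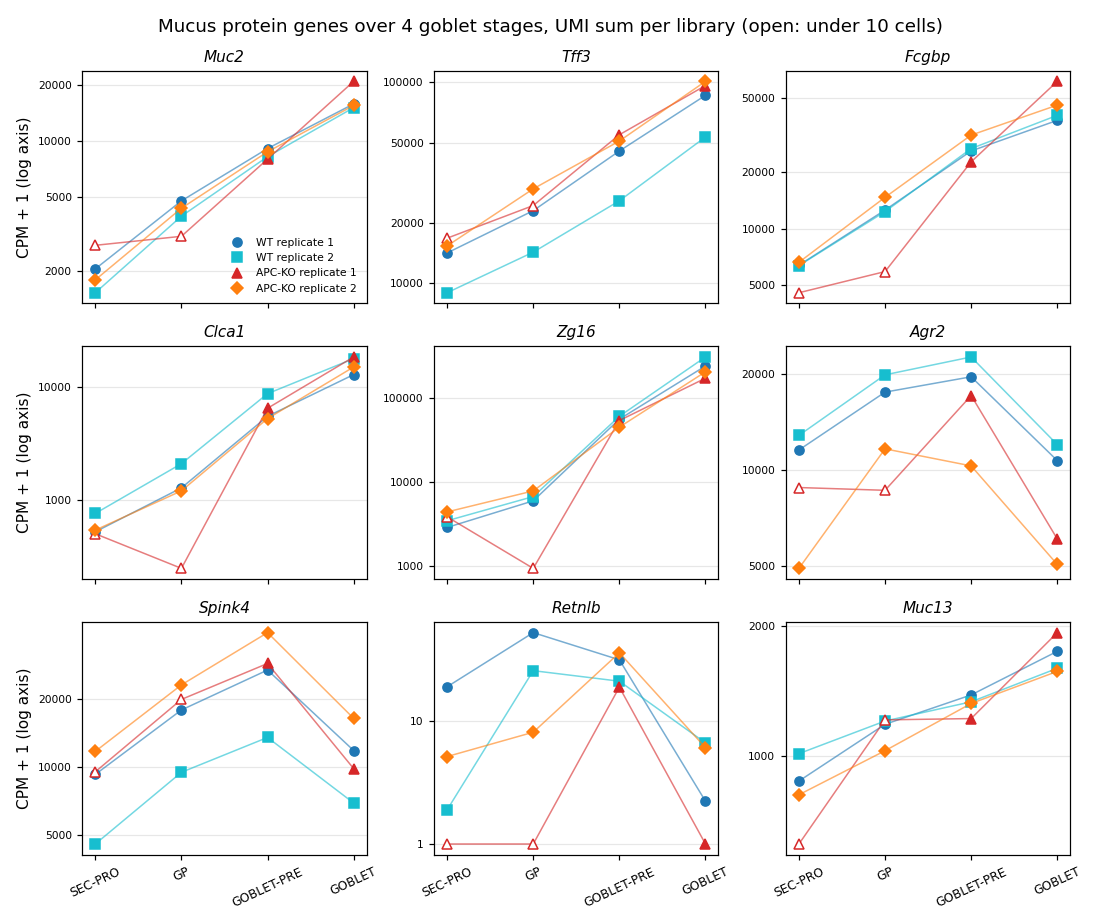
Level of each of the 9 genes (CPM + 1, log axis) in the summed cells of the 4 goblet stages, 1 line per library, with open symbols for sums of under 10 cells. Muc2, Tff3, Fcgbp, Clca1, Zg16 and Muc13 end at their highest value in GOBLET cells in all 4 libraries, while Agr2 and Spink4 turn down after GOBLET-PRE or GP.

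Muc2, the gel-forming mucin, was at 2061, 1535, 2760 and 1799 CPM in SEC-PRO cells and at 4787, 3959, 3086 and 4370 in GP cells. In GOBLET-PRE cells it was at 9145, 8271, 8025 and 8786 CPM, and in GOBLET cells at 15898, 15177, 21013 and 15582. The ranges of neighbouring stages did not overlap, and the mean was 9.41-fold higher in GOBLET than in SEC-PRO cells. Mean levels were 10.6%, 25.8% and 50.6% of that in GOBLET cells in SEC-PRO, GP and GOBLET-PRE cells, close enough to 10% and 50% that leaving out 1 library moved Muc2 across either mark.

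Tff3, a trefoil peptide of the mucus gel encoded at chr17:31125306-31129646, and Fcgbp, a large mucus protein that binds to MUC2, kept nearly the same proportions as Muc2. Tff3 was at 14120, 8953, 16719 and 15302 CPM in SEC-PRO cells and at 85794, 53254, 95972 and 100724 in GOBLET cells. Its lowest value was in WT replicate 2 at all 4 stages. Fcgbp was at 6384, 6354, 4549 and 6615 CPM in SEC-PRO cells and at 37959, 40367, 61350 and 45791 in GOBLET cells. The mean of Tff3 was 15.2%, 26.4% and 52.6% of its GOBLET level over the 3 earlier stages, and that of Fcgbp 13.9%, 28.5% and 57.9%. Muc13, the membrane mucin, had the flattest course, from 872, 1009, 622 and 810 CPM in SEC-PRO cells to 1746, 1594, 1929 and 1568 in GOBLET cells, which is 1.91-fold in the means.

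Clca1, a protease that cuts MUC2 and is encoded at chr3:145003817-145032776, started low. It was at 526, 764, 505 and 544 CPM in SEC-PRO cells, at 5465, 8651, 6435 and 5220 in GOBLET-PRE cells and at 12726, 17588, 18188 and 14851 in GOBLET cells. Means in SEC-PRO, GP and GOBLET-PRE cells were 3.86%, 9.65% and 40.7% of the GOBLET mean. Zg16, a secreted lectin-like protein that binds Gram-positive bacteria (chr7:127050156-127087328), had the steepest course, from 2879, 3457, 3849 and 4405 CPM in SEC-PRO cells to 239015, 305984, 171196 and 203915 in GOBLET cells. Its means were 1.56%, 2.97% and 23.3% of the GOBLET mean, and its fold from SEC-PRO to GOBLET cells, 64.2, compares with 25.9 for Clca1. In GOBLET cells Zg16 gave 17.1% to 30.6% of all UMIs of a library. A pair of gene models on the opposite strand overlaps Zg16 and 1 overlaps Muc13.

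Agr2, which folds mucins in the endoplasmic reticulum, was at 11529, 12814, 8787 and 4897 CPM in SEC-PRO cells. It was at 17520, 19857, 8613 and 11625 CPM in GP cells, at 19576, 22591, 17094 and 10276 in GOBLET-PRE cells and at 10677, 11985, 6058 and 5038 in GOBLET cells. GOBLET-PRE held the highest value in 3 libraries and GP in APC-KO replicate 2. Spink4, the Kazal family protein encoded at chr4:40920052-40931395, peaked in GOBLET-PRE cells in 4 of 4 libraries, at 26981, 13539, 28854 and 39563 CPM, against 9273, 4551, 9526 and 11740 in SEC-PRO cells and 11844, 6922, 9843 and 16452 in GOBLET cells. Since the 9 genes fill so much of a GOBLET library, levels were also taken per 1000000 UMIs of all other genes, an alternative chosen after seeing the data. On that scale GOBLET cells held 0.756, 0.807, 0.466 and 0.664 of the GOBLET-PRE level of Agr2, and 0.609, 0.778, 0.448 and 0.563 of that of Spink4, both still lower in 4 of 4 libraries. For Zg16 the same ratio was 5.94, 7.72, 4.18 and 6.16.

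Retnlb, encoded at chr16:48816856-48818892, was rare in every stage. GP cells held 205, 81, 0 and 12 of its UMIs, found in 41, 21, 0 and 9 cells, and GOBLET cells held 1, 8, 0 and 5. The 0 in GP cells of APC-KO replicate 1 allows up to 62.6 CPM (3 counts of its total, counting error only), above the 51.7 CPM of WT replicate 1. Its mean was 27.9 CPM in GP cells without APC-KO replicate 1, and 26.0 CPM in GOBLET-PRE cells with it. With every library counted in both types, GOBLET-PRE was higher, at 26.0 against 20.9 CPM. The highest stage was GP in both WT libraries and GOBLET-PRE in both APC-KO libraries. Leaving out WT replicate 1 or APC-KO replicate 1, or averaging on the log2 scale, also put the highest mean in GOBLET-PRE cells.

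The order within SEC-PRO cells was looked at cell by cell after each cell was thinned to 2000 UMIs, which left out 13, 7, 1 and 33 cells and left 530, 380, 4 and 830. A Muc2 UMI was found in 75.5%, 74.2% and 74.9% of SEC-PRO cells in the libraries other than APC-KO replicate 1 (exact 95% binomial intervals of the WT values 71.6% to 79.1% and 69.5% to 78.5%). The EC cells of the same libraries, which are not goblet cells, gave 39.7%, 26.0% and 36.5%. Median depth per cell before thinning was 5603, 5878 and 4460 UMIs in these SEC-PRO cells and 3066, 3374 and 2413 in the EC cells. Clca1 was found in 31.5%, 40.8% and 33.0% of SEC-PRO cells against 9.63%, 11.6% and 14.9% of EC cells, and Agr2 in 94.9%, 95.3% and 91.6% against 51.3%, 45.0% and 30.5%. Zg16, in contrast, was found in 68.5%, 59.5% and 77.6% of SEC-PRO cells and in 74.5%, 62.4% and 83.5% of EC cells, a share below background in each library. At the other end, 34, 16, 1 and 70 SEC-PRO cells drew at least 1% of their UMIs from Zg16, and these held 68.0%, 74.9%, 89.9% and 75.7% of its UMIs in that stage.

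Within SEC-PRO cells Agr2 and Tff3 were seen without Muc2 far more often than the reverse. Agr2 without Muc2 made up 20.9% and 21.6% of the WT cells and 19.8% of those of APC-KO replicate 2, against 1.51%, 0.526% and 3.13% for Muc2 without Agr2. Tff3 without Muc2 made up 24.5%, 25.8% and 25.1%, and no cell had Muc2 without Tff3, which allows shares of up to 0.694%, 0.966% and 0.443% (exact 95% upper limits). Agr2 and Tff3 had several times more UMIs than Muc2 in these cells, so the counts of a thinned cell favour that direction. The share of cells cannot tell earlier expression from a higher level.

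To follow the genes within 1 stage, GOBLET-PRE cells were split into 4 equal groups by the share of their UMIs from Zg16. That share was 0.778%, 0.744%, 0.322% and 0.521% in the lowest group and 11.9%, 12.9%, 11.2% and 9.64% in the highest. Per 1000000 UMIs other than Zg16, Clca1 went from 2770, 4723, 1102 and 2162 in the lowest group to 8690, 14081, 12149 and 9438 in the highest. Tff3 went from 34798, 19666, 38749 and 38401 to 67789, 39530, 79097 and 73708. Muc2 and Fcgbp were higher in each next group in all 4 libraries, from between 5011 and 7292 to between 11453 and 12104 for Muc2. Agr2 was also higher in the highest than in the lowest group in all 4 libraries, but by a smaller factor. It went from 19286, 21947, 14587 and 9772 to 22169, 24240, 19164 and 10934. The same held for Spink4, from 25622, 12430, 31085 and 39884 to 32295, 17567, 36280 and 46863. The stretch over which Zg16, Clca1, Tff3, Muc2 and Fcgbp were higher together was thus one where Agr2 and Spink4 were higher by less.

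**Figure D2:**
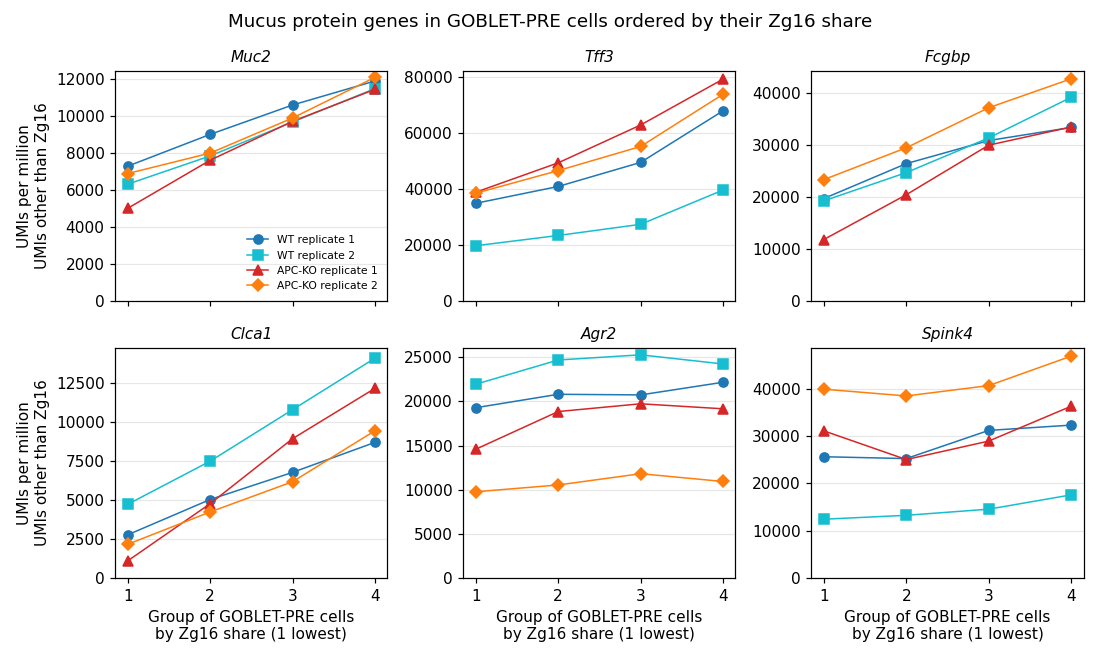
UMIs of 6 genes per 1000000 UMIs other than Zg16 (vertical axis from 0) in 4 equal groups of the GOBLET-PRE cells ordered by their Zg16 share (horizontal axis, 1 lowest), 1 line per library. Muc2, Tff3, Fcgbp and Clca1 climb in every library, Clca1 from 1102 to 12149 in APC-KO replicate 1, while Agr2 and Spink4 end higher by a smaller factor.

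Across single GOBLET-PRE cells (1281, 1247, 184 and 1079), Spearman's rho with the Zg16 share was 0.644, 0.652, 0.761 and 0.693 for Tff3. It was 0.557, 0.617, 0.742 and 0.664 for Clca1 and 0.127, 0.0981, 0.188 and 0.130 for Agr2. UMIs per cell gave 0.0980, 0.116, 0.250 and 0.102. Cells of a library share its depth and free RNA, and these coefficients describe them with no test. Agr2 and Spink4 were themselves weakly opposed in GOBLET-PRE cells, with rho of -0.219, -0.222, -0.0331 and -0.245. In SEC-PRO cells the same pair, without APC-KO replicate 1, had rho of 0.574, 0.478 and 0.600.

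Over the 12 types, 6 genes (Muc2, Tff3, Fcgbp, Clca1, Zg16 and Muc13) had their highest mean level in GOBLET cells. Among the 4 goblet stages this also held with free RNA subtracted, on the log2 scale and without any 1 library. Spink4 was highest in PANETH-PRE cells. Genes with the most similar course over the 24 type sums of the WT libraries (Pearson's r of log2(CPM + 1), 5941 genes compared) were Lrrc26 for Muc2, at 0.972, followed by Tpsg1, Bace2, Spats2l and Klk1, at 0.958, 0.954, 0.951 and 0.943. The 9 genes themselves were left out of the genes compared. The nearest gene outside them was Rep15 for Tff3 (0.930), Bcas1 for Fcgbp (0.976), Fer1l6 for Clca1 (0.965), Gsta4 for Zg16 (0.978) and Tpsg1 for Agr2 (0.970). For Spink4 it was Ccl6 (0.950), for Retnlb Ccl9 (0.834) and for Muc13 Selenos (0.937). Among the 9 themselves Clca1 and Zg16 were most alike (0.976), above the nearest outside gene of Clca1, then Tff3 and Fcgbp (0.960), above that of Tff3, while Zg16 and Spink4 reached 0.346 and Zg16 and Retnlb 0.0535. With all 4 libraries the nearest outside gene was another one for 5 of the 9 members (Muc2, Tff3, Clca1, Zg16 and Agr2), and with log2(CPM + 10) for Tff3. The sums share 2 libraries, and r is a description over types.

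Regulators of the goblet programme did not share 1 course. Spdef, a transcription factor of goblet maturation, was at 209, 252, 250 and 189 CPM in GP cells and 99.9, 121, 157 and 131 in GOBLET cells. Creb3l1, a factor of secretory capacity, was at 353, 370, 480 and 282 CPM in GP cells and 87.5, 75.0, 73.5 and 83.5 in GOBLET cells. Both were lower in GOBLET than in GP cells in 4 of 4 libraries, as Agr2 was. Klf4, a factor of goblet differentiation, was at 444, 429, 505 and 374 CPM in SEC-PRO cells and at 646, 607, 1043 and 740 in GOBLET cells.

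In the Paneth types the genes separated. Spink4 was as high there as in goblet stages, Muc2, Tff3, Agr2 and Fcgbp were well above background in PANETH-PRE cells and lower in CPM in PANETH cells, and Clca1 and Zg16 in WT cells lay below background in CPM. Background is the level in EC, NON-EC and TUFT cells of the same library, since droplets also hold free RNA. In APC-KO replicate 2 these types held cells with at least 1% of their UMIs from Zg16, which carried other goblet genes too. Muc2 there was at 699, 1075 and 1330 CPM in EC, NON-EC and TUFT cells, and at 358, 343 and 485 without such cells. Ratios to background in that library use the higher level. In barcodes with 1 to 50 UMIs, mostly without a cell, the 9 genes made up 59158, 60971, 64891 and 60890 CPM.

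**Figure D3:**
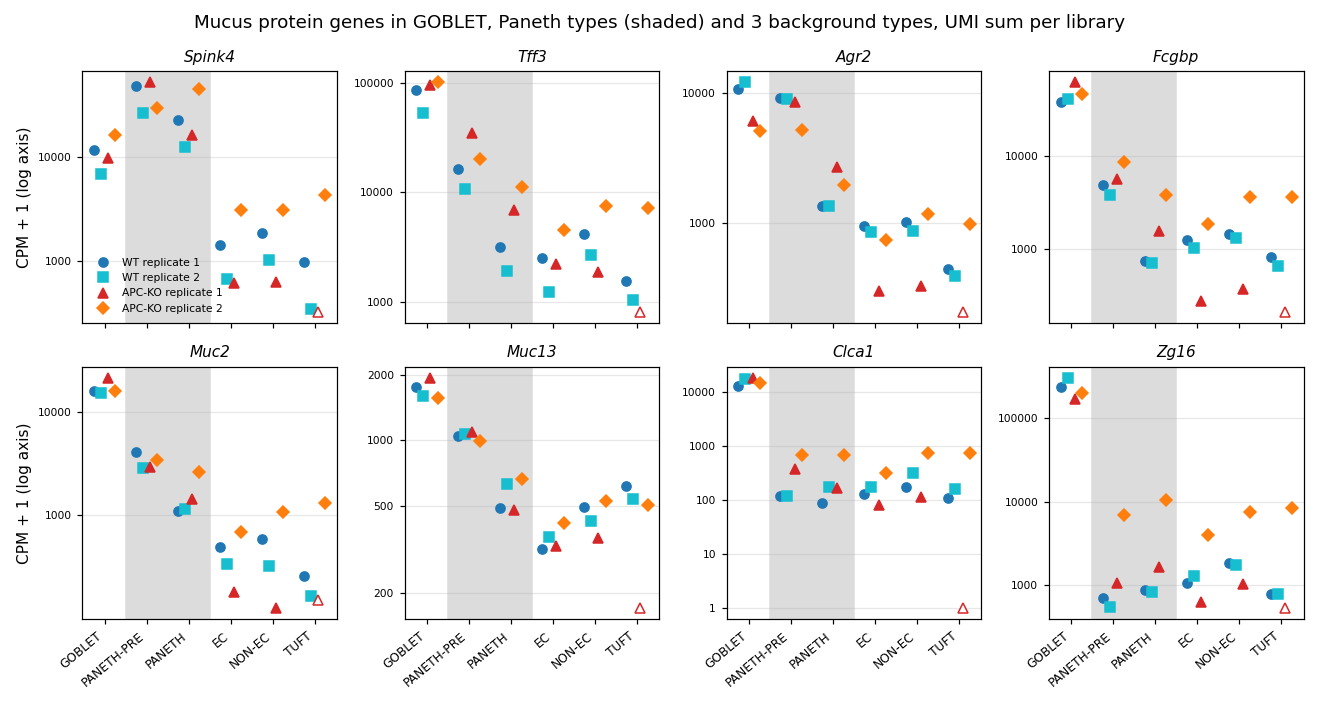
Level of 8 of the 9 genes (CPM + 1, log axis) in GOBLET cells, in PANETH-PRE and PANETH cells (shaded) and in 3 background types, 1 symbol per library, with open symbols for sums of under 10 cells. Spink4 in PANETH-PRE cells lies between 26803 and 53235 CPM, above GOBLET cells, and Zg16 and Clca1 in WT Paneth types lie with the background types.

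Spink4 was at 49504, 26803, 53235 and 30206 CPM in PANETH-PRE cells, which is 34.3, 38.7, 92.5 and 8.45 times background. In PANETH cells it was at 22851, 12749, 16400 and 46114 CPM, or 15.8, 18.4, 28.5 and 12.9 times background. PANETH-PRE exceeded GOBLET-PRE cells in 3 libraries, and in APC-KO replicate 2 it did not. In cells thinned to 2000 UMIs the median was 38, 20.5, 20 and 94.5 Spink4 UMIs in PANETH cells and 1, 0, 1 and 2 in EC cells. The share of cells with a UMI, 100% of thinned PANETH cells, could go no higher, and was 71.1%, 47.3%, 64.4% and 85.5% in EC cells.

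Muc2 was at 4086, 2864, 2929 and 3447 CPM in PANETH-PRE cells, 8.82, 9.85, 17.3 and 3.35 times background, and at 2.39, 3.96, 8.43 and 2.56 times background in PANETH cells. Tff3 was at 16364, 10710, 34523 and 20135 CPM in PANETH-PRE cells, and in PANETH cells only 1.13, 1.18, 3.51 and 1.80 times background. Agr2 was 10.9, 12.1, 28.8 and 5.43 times background in PANETH-PRE cells and 1.63, 1.84, 9.07 and 2.06 times in PANETH cells. In CPM all 3, with Fcgbp and Muc13, were lower in PANETH than in PANETH-PRE cells in 4 of 4 libraries. The 12 Paneth markers filled much of a PANETH library, so levels were also taken per 1000000 UMIs outside that list, an alternative chosen after seeing the data. On that scale PANETH cells held 0.287, 0.298, 0.522 and 0.553 of the PANETH-PRE level of Agr2, and 0.372, 0.352, 0.335 and 0.815 of that of Tff3. For Muc2 the ratio was 0.520, 0.786, 0.806 and 1.11, so its direction turned in APC-KO replicate 2. Tff3, Fcgbp and Agr2 were the 3 members lower in all 4 libraries on both scales. Clca1 was at 0.860 and 0.554 times background in WT PANETH-PRE cells and Zg16 at 0.566 and 0.414. In WT PANETH cells Zg16 was at 0.702 and 0.629 times background in CPM. The background types of these libraries were at 768 to 1814 and 783 to 1718 CPM. Per 1000000 UMIs outside the Paneth markers, however, Zg16 in WT PANETH cells was at 1909 and 1787, above these ranges. Clca1 in WT PANETH cells was at 189 and 386 on that scale, against 108 to 174 and 157 to 315 CPM in the background types of the same libraries. Muc13 was 2.28, 2.49, 3.51 and 2.09 times background in PANETH-PRE cells. Bhlha15, a secretory cell transcription factor, was at 109, 133, 103 and 73.5 CPM in PANETH-PRE cells and at 3.70 to 9.79 in GOBLET cells.

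Retnlb was at 157, 110, 858 and 41.2 CPM in PANETH-PRE cells and at 42.0, 8.70, 116 and 97.0 in PANETH cells. The 858 CPM came from 92 UMIs, of which 91 lay in 1 of 11 cells, and without that cell the value was 11.1 CPM. In PANETH cells of the same library 18 of 21 UMIs lay in 1 cell.

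Zg16 stood out in the Paneth types of 1 library. PANETH cells held 863, 811, 1641 and 10540 CPM and PANETH-PRE cells 695, 533, 1063 and 6837, with APC-KO replicate 2 far above the others. In that library 41 of 274 PANETH cells (15.0%, exact 95% interval 11.0% to 19.7%) drew at least 1% of their UMIs from Zg16, and they held 89.7% of its UMIs. The same held for 61 of 602 PANETH-PRE cells (10.1%, 7.84% to 12.8%), with 84.8% of the UMIs. In WT libraries 1 of 106 and 2 of 200 PANETH cells reached 1%, and 0 of 122 and 0 of 98 PANETH-PRE cells, which allows shares of up to 2.98% and 3.69%. Without such cells Zg16 was at 682, 542, 1401 and 1283 CPM in PANETH cells.

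The Zg16-rich PANETH cells of APC-KO replicate 2 held the other goblet genes too. Clca1 was at 3646 CPM in them and at 150 in the other PANETH cells, Fcgbp at 14307 and 1926, and Tff3 at 33582 and 7266. Spink4 was lower in them, at 28214 against 49313 CPM, and Lyz1, the Paneth lysozyme, was at 17681 against 28630. Median UMIs per cell were 5907 and 6001. Whether such cells were doublets or cells under another type's name was not tested, and the Zg16 and Clca1 values of the Paneth types in that library include them. Zg16-rich cells were neither limited to Paneth types nor to that library. In ENTERO-PRO cells they were 23 of 116 and 9 of 65 in WT (19.8% and 13.8%), 0 of 11 in APC-KO replicate 1 (up to 28.5%) and 98 of 468 in APC-KO replicate 2 (20.9%), with 93.9%, 90.4% and 92.7% of the Zg16 UMIs of that type where there were any. In APC-KO replicate 2, 15 of 276 TUFT cells (5.43%, 3.07% to 8.81%) held 89.5% of the Zg16 UMIs of that type, against 2 of 231 and 2 of 123 TUFT cells in WT. Background types of APC-KO replicate 2 were also high, with Zg16 at 3927 CPM in EC, 7478 in NON-EC and 8475 in TUFT cells against 530 to 1814 in the other libraries. Free RNA had 13718, 19351, 14220 and 13646 CPM of Zg16, about alike.

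**Figure D4:**
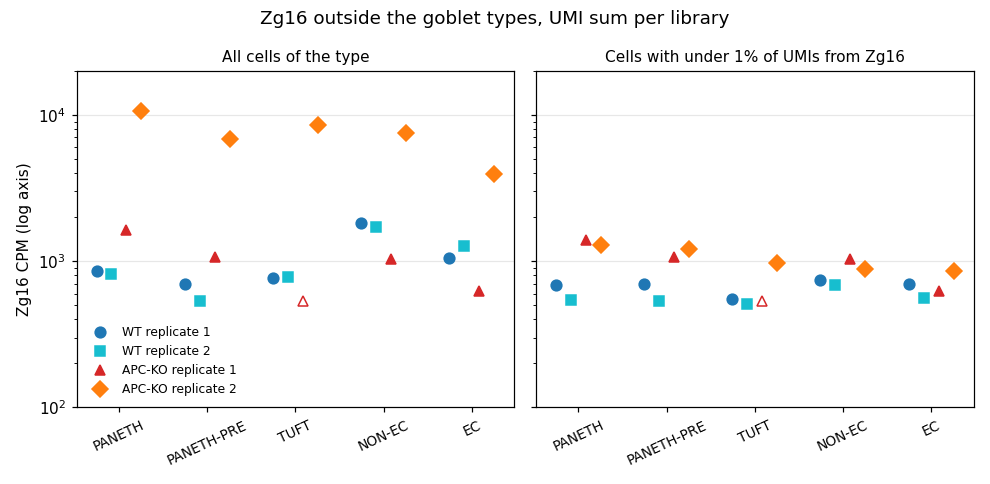
Zg16 level (CPM, log axis) in 5 types outside the goblet stages, over all cells of the type (left) and over cells with under 1% of their UMIs from Zg16 (right), 1 symbol per library, with an open symbol for a sum of under 10 cells. APC-KO replicate 2 reaches 10540 CPM in PANETH cells on the left and 1283 on the right. The WT libraries are at 682 and 542 on the right and APC-KO replicate 1 at 1401. Cells were left out by their own Zg16 share, so a lower level on the right was set in advance.

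The genotype comparison asks whether the mucus genes differ between APC-KO and WT cells of the same type. No member passed the test (edgeR's quasi-likelihood test, adjusted p under 0.05 over all genes tested) in all cells together, in GOBLET-PRE, in GOBLET, in both goblet types summed, in the Paneth types summed or in SEC-PRO cells. In GP cells Clca1 and Retnlb fell in APC-KO, on 7 cells of APC-KO replicate 1. In the SEC-PRO and GP fits, and in that between stages, edgeR's error was pooled over genes. Their p-values therefore do not measure a gene's own spread between libraries. The standard error in GP cells was 0.27 for Zg16 (APC-KO SD 4871 CPM) and 0.26 for Muc13 (APC-KO SD 130 CPM). Fold changes are on the log2 scale as APC-KO minus WT, after TMM scaling, which centres most genes at 0. Plain CPM ratios were shifted from the fitted ones, with a median over genes of 0.53 in the Paneth types, 0.17 in GOBLET, -0.13 in GOBLET-PRE, -0.27 in GP and -0.45 in SEC-PRO cells.

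**Figure D5:**
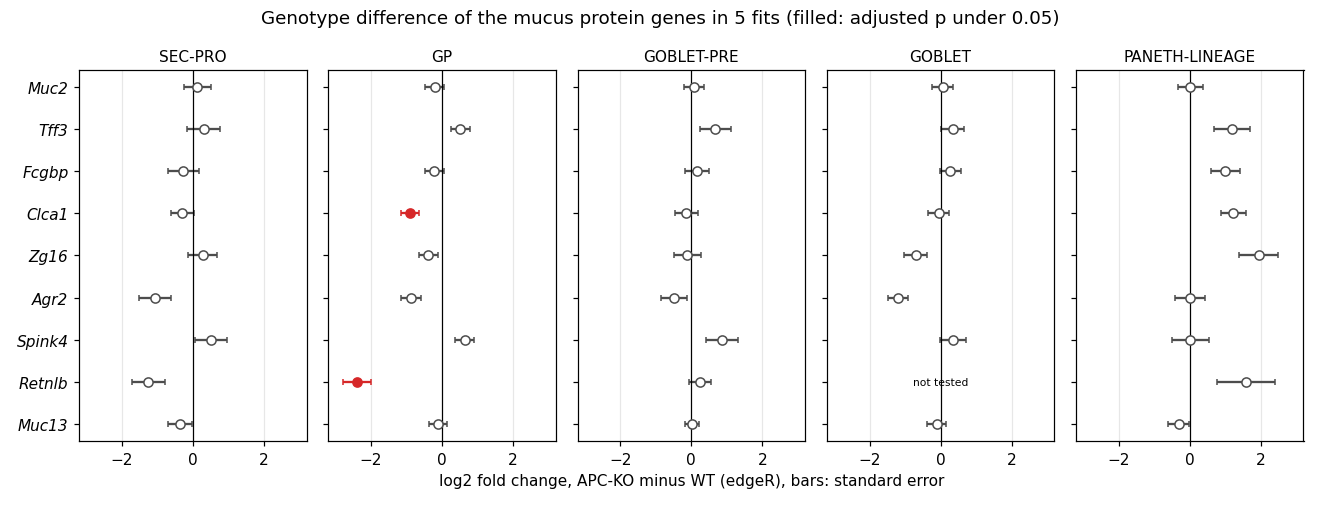
Fitted log2 fold change of each gene, APC-KO minus WT, in 5 comparisons, with bars of 1 standard error and filled points for an adjusted p under 0.05. Clca1 (-0.90) and Retnlb (-2.39) in GP cells are filled, and Zg16 in the Paneth types, at 1.94, is not.

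In all kept cells together edgeR called 0 of 13345 genes (0%), 0 of the 9 members, and none of the 9 at an unadjusted p under 0.05 where 3.71% of genes were. The DESeq2 Wald test called 0 members. The members' fold changes lay between -0.48 and 0.83, and 1 of 9 had no overlap between the groups in CPM, against 34.5% of genes.

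In GOBLET-PRE cells edgeR called 1 of 10272 genes (0.00974%) and no member, with no member under an unadjusted p of 0.05 (7.95% of genes) and no member called by the DESeq2 Wald test. Agr2 was at 19576 and 22591 CPM in WT and 17094 and 10276 in APC-KO libraries, and Spink4 at 26981 and 13539 against 28854 and 39563. Neither pair overlapped, and 5 of 9 members did not overlap, against 41.8% of genes tested. Spink4 had a fitted change of 0.85 (SE 0.45, edgeR adjusted p = 0.657), and the other 8 lay between -0.49 and 0.68.

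In GOBLET cells 5 of 5974 genes (0.0837%) and none of 8 members tested were called, with 1 member under an unadjusted p of 0.05 (11.2% of genes) and none called by the DESeq2 Wald test. Retnlb was too low to be tested. Agr2 was at 10677 and 11985 CPM in WT and at 6058 and 5038 in APC-KO libraries, 11331 ± 925 against 5548 ± 721 (SD, n = 2 each). The groups did not overlap, as for 4 of 8 members and 44% of genes, and the fitted change was -1.21 (SE 0.29, edgeR adjusted p = 0.258). With no filter on low counts Agr2 passed (-1.29, edgeR adjusted p = 0.0122), in a fit that called 81 of 11455 genes. Zg16 was at 239015 and 305984 against 171196 and 203915 CPM, also without overlap, with a fitted change of -0.70 (SE 0.33, edgeR adjusted p = 0.448). The other 6 lay between -0.11 and 0.35, Muc2 among them.

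With GOBLET and GOBLET-PRE cells summed, 2 of 10445 genes (0.0191%) and no member were called by edgeR, and no member was under an unadjusted p of 0.05 (8.42% of genes) or called by the DESeq2 Wald test. The 9 changes lay between -0.54 and 0.80.

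In SEC-PRO cells, with only 5 cells in APC-KO replicate 1, edgeR called 354 of 9907 genes (3.57%) and no member. At an unadjusted p under 0.05 there were 2 members (13.2% of genes), and the DESeq2 Wald test called none. Agr2 was at 11529 and 12814 CPM in WT and at 8787 and 4897 in APC-KO libraries, without overlap, as were 5 of 9 members and 41.5% of genes. Its change was -1.06 (SE 0.46, edgeR adjusted p = 0.233), and it passed without APC-KO replicate 1 (-1.21, edgeR adjusted p = 0.0141). Retnlb had 55, 2, 0 and 17 UMIs and a change of -1.25 (SE 0.46, edgeR adjusted p = 0.109), which passed without WT replicate 2 (-2.06, edgeR adjusted p = 0.0272).

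In GP cells edgeR called 269 of 9362 genes (2.87%, 1.09% lower in APC-KO) and 2 of 9 members, both lower, and 5 of 9 members did not overlap, against 42.3% of genes. Clca1 was at 1281 and 2094 CPM in WT and at 250 and 1208 in APC-KO libraries. APC-KO replicate 2 was close to WT replicate 1, and the low value was APC-KO replicate 1 with 7 cells. Clca1 fell by 0.90 (SE 0.26, edgeR adjusted p = 0.0199), and the call was lost without APC-KO replicate 1 (-0.37, edgeR adjusted p = 0.470), without WT replicate 1 (-1.26, edgeR adjusted p = 0.0726), without WT replicate 2 (-0.64) and in the DESeq2 Wald test (-1.11). Retnlb, at 51.7, 24.8, 0 and 7.14 CPM, fell by 2.39 (SE 0.40, edgeR adjusted p = 4.45e-07). It kept the call without APC-KO replicate 1 (-2.34), but not without WT replicate 1 (-1.68, edgeR adjusted p = 0.0569), with the replicate number as a block (-1.78, edgeR adjusted p = 0.0574), in the DESeq2 Wald test (-2.51) or without APC-KO replicate 2, which leaves no Retnlb UMI in APC-KO.

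Agr2 in GP cells was at 17520 and 19857 against 8613 and 11625 CPM, without overlap, and missed the threshold (-0.87, SE 0.27, edgeR adjusted p = 0.0502). Without APC-KO replicate 2 the Agr2 value was -1.30, but the median over all genes was then -0.80, far from 0. That fit has only APC-KO replicate 1 in its group, so the value cannot be read as a larger fall of Agr2. Agr2 was lower in both APC-KO than in both WT libraries in SEC-PRO, GP, GOBLET-PRE and GOBLET cells, 4 sums from the same 4 libraries. Spink4 in GP cells was at 17934 and 9479 against 19978 and 23182 CPM (0.63, SE 0.27, edgeR adjusted p = 0.257), and passed without WT replicate 1 (1.23, edgeR adjusted p = 0.0172). Tff3 had 0.52 (SE 0.28, edgeR adjusted p = 0.445), and the other 4 lay between -0.39 and -0.12.

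In the Paneth types summed (228, 298, 27 and 876 cells), edgeR called 57 of 8599 genes (0.663%) and no member. At an unadjusted p under 0.05 there were 4 members, against 14.8% of genes, and the DESeq2 Wald test called 2, Tff3 (1.20, adjusted p = 0.0361) and Clca1 (1.21, adjusted p = 0.0455). DESeq2 gave an adjusted p to 597 of the 8599 genes only, so its 2 calls are adjusted over those. Zg16 was at 813 and 762 CPM in WT and at 1426 and 8334 in APC-KO libraries, with a change of 1.94 (SE 0.56, edgeR adjusted p = 0.132). Clca1 was at 95.1 and 165 against 243 and 672 CPM (1.22, SE 0.35, edgeR adjusted p = 0.134). Both APC-KO libraries were above both WT libraries in each case, as in 6 of 9 members and 48.5% of genes (51.2% had no overlap in either direction). Without APC-KO replicate 1 both passed, Zg16 at 2.57 (edgeR adjusted p = 0.00137) and Clca1 at 1.53 (edgeR adjusted p = 0.0153).

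Tff3 in the Paneth types was at 7054 and 3459.5 against 17222 and 16547 CPM (1.19, SE 0.51, edgeR adjusted p = 0.299), and Fcgbp at 1946 and 1239 against 3036 and 6611 (1.00, SE 0.41, edgeR adjusted p = 0.284). Retnlb had 1.58 (SE 0.81, edgeR adjusted p = 0.396), a value that turned to -0.49 without APC-KO replicate 1, whose UMIs came mostly from 1 cell. Muc2, Agr2, Spink4 and Muc13 lay between -0.32 and 0.02. PANETH-PRE cells were 122, 98, 11 and 602 of the cells summed. The 12 Paneth markers summed to 548149, 546456, 456992 and 343146 CPM in PANETH cells and to 132979, 114679, 100472 and 42924 in PANETH-PRE cells, lowest in APC-KO replicate 2. In the summed types 2 of 12 tested Paneth markers fell and 1 of 7 enterocyte and 1 of 7 cycling markers rose, and enterocyte markers summed to 184, 169, 1431 and 496 CPM in PANETH cells. The part of these differences, and that of the Zg16-rich cells, in the fitted values was not tested.

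The difference between the lineages was tested in 1 fit over the goblet and Paneth sums with the library as a block. Here 232 of 10265 genes (2.26%) and 2 of 9 members, Zg16 and Clca1, were called, with 4 members under an unadjusted p of 0.05 (12% of genes). The genotype difference of Zg16 was larger in the Paneth than in the goblet types by 1.86 (SE 0.38, edgeR adjusted p = 0.00118) and that of Clca1 by 1.27 (SE 0.29, edgeR adjusted p = 0.00427). In the goblet types Zg16 was at 75696 and 101694 CPM in WT and at 65829 and 73175 in APC-KO libraries, lower in APC-KO, while in the Paneth types it was higher. Clca1 in the goblet types was at 6253, 10155, 7643 and 6935 CPM, with overlap. Without APC-KO replicate 2 neither call held, at 0.90 for Zg16 (edgeR adjusted p = 0.469) and 0.64 for Clca1 (edgeR adjusted p = 0.614), that of Clca1 was also lost without WT replicate 1 (1.17, edgeR adjusted p = 0.129), and the DESeq2 Wald test, with an adjusted p for 3101 of the 10265 genes, called only Clca1. With free RNA subtracted the values were 6.15 and 2.49, but they rest on very low WT levels in the Paneth types. Zg16 had a WT mean of 788 CPM there, against 13718 and 19351 CPM in free RNA of the WT libraries. Clca1 had a WT mean of 130 CPM there, against 1350 and 2099. The subtraction thus took most or all of the WT Zg16 and much of the WT Clca1, so the size of these values cannot be read. Without APC-KO replicate 1 the values were 2.81 and 1.76. The remaining members with an unadjusted p under 0.1 were Fcgbp at 0.80 (SE 0.30, edgeR adjusted p = 0.191), Agr2 at 0.53 (SE 0.28, edgeR adjusted p = 0.474), Spink4 at -0.81 (SE 0.32, edgeR adjusted p = 0.218) and Muc13 at -0.37 (SE 0.22, edgeR adjusted p = 0.535).

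Whether the genotype difference changed from GOBLET-PRE to GOBLET cells was tested in the same way. edgeR called 13 of 8644 genes (0.15%) and no member, with no member under an unadjusted p of 0.05 (5.07% of genes) and none called by the DESeq2 Wald test. The 9 values lay between -0.69 and 0.09, with a lowest edgeR adjusted p of 0.993.

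Other genes of the mucus pathway were followed in 3 lists, of 30 other secreted mucus and goblet products, 30 genes of mucin folding and glycosylation and 13 goblet transcription factors. In GOBLET cells none of 15, 22 and 12 tested members was called by edgeR, with 5, 0 and 0 under an unadjusted p of 0.05. Over all genes tested there 0.0837% were called and 11.2% were under that p. The medians were -0.29, -0.12 and -0.30, against 0.01 over all genes. In GOBLET-PRE cells 1 of 25 folding and glycosylation genes rose and none of 18 other products and 13 factors was called, against 0.00974% of all genes. That gene was St6galnac1, a sialyltransferase of mucin O-glycans, with 1, 1, 19 and 60 UMIs (edgeR adjusted p = 0.0257). It lies under the 20 CPM set for naming genes and is named after its values were seen. It passed the filter on low counts only through the APC-KO libraries, where it was high, so the call gives no separate support. In the Paneth types 1 of 15 other products rose, and none of 24 and 13 in the other lists was called, against 0.663% of all genes.

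The product that rose in the Paneth types was Dmbt1, a secreted scavenger receptor protein, at 34.4 and 16.0 CPM in WT and 132 and 242 in APC-KO libraries (2.38, SE 0.32, edgeR adjusted p = 0.0106). It also rose in SEC-PRO cells, at 68.7, 56.2, 156 and 324 CPM (2.32, SE 0.25, edgeR adjusted p = 9.29e-18), and in GP cells, at 41.1, 27.6, 125 and 88.6 CPM (1.47, SE 0.22, edgeR adjusted p = 8.15e-09). APC-KO libraries were above WT in all 3 sums, although APC-KO replicate 1 gave only 4 and 6 UMIs in SEC-PRO and GP cells. The SEC-PRO and GP p-values rest on an error pooled over genes. In GP cells, where 2.87% of all genes were called, 1 of 16 other products rose and 2 fell, and 1 of 24 folding and glycosylation genes rose, the glycosyltransferase Galnt10 (0.69, SE 0.19, edgeR adjusted p = 0.0148), named after its values were seen. Those that fell were Ang4, an antimicrobial ribonuclease of Paneth and goblet cells, at 215, 744, 20.9 and 115 CPM (-2.08, SE 0.26, edgeR adjusted p = 8.78e-13), and Itln1, a lectin, at 1567, 2088, 834 and 509 CPM (-1.56, SE 0.27, edgeR adjusted p = 2.72e-06). The GP sum of APC-KO replicate 1 held only 47953 UMIs, so its Ang4 value rests on very few counts. The WT values of Ang4 also lay far apart. In SEC-PRO cells, with 3.57% of all genes called, 1 of 16 other products rose and 1 fell, and 1 of 25 folding and glycosylation genes, again St6galnac1, rose and 1 fell. The latter was C1galt1c1, the chaperone of the enzyme that builds core O-glycans, at 112, 139, 38.9 and 60.4 CPM (-0.98, SE 0.24, edgeR adjusted p = 0.00380). With 25720 UMIs in the SEC-PRO sum of APC-KO replicate 1, its C1galt1c1 value too rests on very few counts. Ang4 was the product that fell in SEC-PRO cells (-0.91, SE 0.25, edgeR adjusted p = 0.0129). Ang4 and Itln1 are also Paneth markers, and no factor of the third list was called in SEC-PRO or GP cells.

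For the difference between the lineages 2 of 18 other products were called higher in the Paneth types and 3 lower, none of 25 folding and glycosylation genes was called, and 1 of 13 factors was called lower, against 2.26% of all genes called. Itln1 had -2.35 (SE 0.36, edgeR adjusted p = 9.68e-06), Ang4 -1.38 (SE 0.34, edgeR adjusted p = 0.00936) and Capn9, a calpain protease, 1.26 (SE 0.30, edgeR adjusted p = 0.00653). The other calls, named after their values were seen, were Dmbt1 (1.06), the trefoil gene Tff2 at a mean of 6.23 CPM, and the factor Bhlha15 (-1.06). Zg16, Clca1, Capn9 and Dmbt1 thus lay on 1 side of this comparison, and Itln1, Ang4, Tff2 and Bhlha15 on the other.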

How the data were processed

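UMI counts per gene and barcode were deposited unfiltered, per the file headers, and were made with Cell Ranger 3.0.2, STAR and mm10, per the submitters' processing notes. The authors' tables gave each kept cell's UMI and gene counts, its mitochondrial share in percent, and other values, a library and a cell type name. How cells were filtered and named, and whether doublets were removed, is not given in the sources used here, and no doublet caller was run.

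UMIs were summed per library and type. Sums were compared with edgeR 4.0.16 (R 4.3.3: TMM, filterByExpr, quasi-likelihood test, Benjamini-Hochberg over all genes tested, threshold 0.05), 4 sums per comparison, or 8 with the library as a block for differences between lineages or stages. At least 20 cells per library were asked for, and 5 in SEC-PRO and GP. Total depth was 54230249 to 61032126 UMIs per library, and the compared sums held from 25720 UMIs (SEC-PRO, APC-KO replicate 1). Intervals are exact binomial at 95%, and cover counting error only. Alternatives were DESeq2 1.42.0 size factors and its Wald test, no filter, a block for the replicate number, leaving out libraries in turn, only cells of 2000 UMIs or more, cells thinned to 2000, subtraction of free RNA (5% of a sum, with the profile of barcodes of 1 to 50 UMIs), and scaling without the members, defensins and mitochondrial genes. The fits were tested on simulated data. Positions are from GENCODE vM21 (GRCm38).

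All 9 members were reported in every comparison. From the 3 pathway lists at most 3 genes per comparison were named, those past the threshold with no overlap of the groups, a mean of at least 20 CPM and the largest change. For likeness, 5 genes were named for Muc2 and 1 for each other member. The members, lists and tests were chosen with earlier results of these data known. Python 3.11.15, NumPy 2.4.6 and SciPy 1.17.1 were used.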

Additional observations from a re-analysis of the deposited data

Results flagged for a closer look

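The genotype difference of Zg16 and of Clca1 was not the same in the goblet and Paneth types, by the interaction test over 8 sums with the library as a block. For Zg16 it was 1.86 (log2) larger in the Paneth types (SE 0.38, edgeR adjusted p = 0.00118), where both APC-KO libraries were above both WT libraries, while in the goblet types both were below. For Clca1 it was 1.27 larger (SE 0.29, edgeR adjusted p = 0.00427). Both calls rested on APC-KO replicate 2, without which they were 0.90 and 0.64 and did not pass. Of the Zg16 UMIs of that library 89.7% in PANETH and 84.8% in PANETH-PRE cells lay in the cells with at least 1% Zg16. Whether these were doublets or cells under another type's name was not tested.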

How the results depend on the processing

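The number of members called was 0 in GOBLET cells (5 of 5974 genes called) and 1 with no filter on low counts (81 of 11455). In the Paneth types it was 0 (57 of 8599 genes). There it was 2 by the DESeq2 Wald test (38 of the 597 genes with an adjusted p) and 3 with no filter (507 of 13607). It was 2 there after thinning (60 of 4855) and 1 with free RNA subtracted (124 of 8369). In SEC-PRO cells it was 0 (354 of 9907 genes). In GP cells it was 2 (269 of 9362 genes), with 0 by the DESeq2 Wald test (2 of 9362). For the difference between lineages it was 2 (232 of 10265 genes), with 1 by the DESeq2 Wald test (33 of 3101), and between stages 0 (13 of 8644). All of these but the GOBLET count moved with a library left out. Of the 5 genes most like Muc2, 2 remained with all 4 libraries and 4 with log2(CPM + 10). Members lower in PANETH than in PANETH-PRE cells in all 4 libraries were 5 in CPM and 3 per 1000000 UMIs outside the Paneth markers, a scale chosen after seeing the data. Over all 80 member values the sign changed in 75 of 877 alternatives. Among these only Retnlb, for the difference between lineages without APC-KO replicate 1, also passed the threshold (-0.89, edgeR adjusted p = 0.00120). Retnlb in the Paneth types ranged from -0.49 to 2.72 with a library left out; the cause was not tested. Calls over all genes ranged from 0 to 507 in the Paneth types and from 2 to 612 in GP cells.

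The labels give replicate numbers but do not say that they pair libraries, and the deviations of same-numbered libraries correlated at -0.24 in all cells and between -0.04 and -0.00835 in the types. With the replicate number as a block, 1 member was called in the Paneth types (Clca1, 1.18, edgeR adjusted p = 0.0488) and 1 in GP cells, and Retnlb in SEC-PRO cells turned to 1.33. A crossed pairing in all cells, chosen after seeing the data, called 1 gene and the block 4, with no member in either. Block calls were 110 genes in GOBLET-PRE, 73 in GOBLET, 27 in both goblet types, 124 in the Paneth types, 96 in SEC-PRO and 76 in GP cells. SEC-PRO and GP values rest on 5 and 7 cells of APC-KO replicate 1, and a library left alone in its group is assumed to vary like the others. With 2 libraries a group small differences could not be seen. Alternatives were not computed gene by gene for the pathway lists.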

Other observations

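St6galnac1, a sialyltransferase that caps mucin O-glycans, was nearly absent from both WT libraries and present in both APC-KO libraries. Over all kept cells it had 2, 1, 35 and 240 UMIs, or 0.0810, 0.0476, 11.6 and 8.80 CPM. By type it had 1, 1, 19 and 60 UMIs in GOBLET-PRE cells and 0, 0, 8 and 79 in ENTERO-PRO cells. ISC cells, a type outside the goblet stages, held 0, 0, 0 and 38. St6galnac1 was called by edgeR in GOBLET-PRE cells, in both goblet types summed and in SEC-PRO cells. It entered these fits only through the APC-KO libraries, where it was high, so the calls give no separate support. The GOBLET-PRE cells are also part of both goblet types summed. Galnt10, another glycosyltransferase gene, was at 73.4, 72.3, 73.4 and 99.5 CPM over all kept cells. The St6galnac1 ratio to a WT count of 1 or 0 cannot be fixed, and no value of age, strain or batch was given for the libraries.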
